A study of Homo sapiens with 8 samples.

Results

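The CHD family comprises 9 genes, CHD1 to CHD9, which were taken by symbol from the 57773 genes counted in RNA-seq of the human embryonic stem cell (hESC) line H9. All 9 passed the expression filter, as did 23474 genes in total. The study had 8 libraries, 2 replicates in each of 4 groups. WT cells were untreated wild type H9 cells labelled as carrying CHD7-HA, a hemagglutinin tag on CHD7. CHD7 knockout cells were untreated with the genotype CHD7 -/-. HERVH knockdown cells were wild type (CHD7-HA) cells collected 24 h after transfection of LNA-GapmeRs, short antisense oligonucleotides that direct RNase H to a transcript, here that of the endogenous retrovirus family HERVH, which is strongly transcribed in hESCs. HERVH knockout cells were untreated and lacked 1 HERVH element on chromosome 2. The edited lines were grown from picked colonies, the labels do not name the CHD7 mutation or the clone behind each replicate, and the WT libraries were not transfected. Nothing in the labels says that replicates were separate cultures, so the p-values measure the spread between these libraries. With 2 libraries a group, the values of 2 groups can lie apart without a difference. The share of all genes whose groups lie apart was not counted.

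CHD proteins are ATP-dependent chromatin remodelers that pair chromodomains, which bind methylated histone tails in several members, with a SNF2-type ATPase that slides or evicts nucleosomes. CHD1 and CHD2 form subfamily I and act on transcribed chromatin. CHD3, CHD4 and CHD5 form subfamily II, carry PHD fingers, and serve as alternative ATPases of the NuRD deacetylase complex. CHD6, CHD7, CHD8 and CHD9 form subfamily III. CHD7 binds enhancers in embryonic stem cells and is mutated in CHARGE syndrome, and CHD8 is a high-confidence autism gene.

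Between 14802049 (HERVH knockdown replicate 2) and 23156445 (HERVH knockout replicate 1) reads fell on genes, and 3 counts corresponded to 0.128 to 0.218 CPM (TMM-scaled counts relative to library size), a floor that covers counting error only. The 9 pluripotency markers examined, among them POU5F1, SOX2 and NANOG, summed to between 7310 and 8560 CPM in every library. The 11 markers of differentiated cells, mostly VIM, which hESCs also express, and COL1A1, summed to 187 and 173 CPM in WT, 172 and 179 CPM in CHD7 knockout, 283 and 447 CPM in HERVH knockdown and 177 and 182 CPM in HERVH knockout libraries. VIM was at 94.1 and 95.9 CPM in WT, fell to 41.9 and 45.6 CPM in CHD7 knockout cells (FDR = 0.00144) and rose to 184 and 168 CPM in HERVH knockdown cells (FDR = 0.0112, edgeR quasi-likelihood test). COL1A1 was at 83.6 and 67.5 CPM in WT, 120 and 122 CPM in CHD7 knockout (FDR = 0.487) and 93.6 and 269 CPM in HERVH knockdown libraries (FDR = 0.0653). The part of these markers in the values of the members was not tested. Of the list, 5 (GATA6, HAND1, SOX17, SOX1 and CDX2) never exceeded 4 counts. In bulk RNA, fewer cells expressing a gene and less RNA per cell cannot be told apart.

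All members but CHD5 were abundantly transcribed in WT cells. Per exon length, CHD4, the main NuRD ATPase of dividing cells, was highest at 196 ± 4.87 TPM (counts per summed exon length, scaled to a fixed total in each library; SD, n = 2), followed by CHD7 at 136 ± 2.27 TPM. CHD1 was at 80.4 ± 8.35 TPM, CHD8 at 69.6 ± 0.785 TPM and CHD6 at 61.8 ± 5.17 TPM. CHD2 was at 42.2 ± 5.56 TPM, CHD3 at 26.6 ± 1.16 TPM and CHD9 at 19.6 ± 1.11 TPM. CHD5, which is known mainly from neurons, was lowest at 1.73 ± 0.13 TPM, with 90 and 101 counts in the WT libraries. The values of neighbours in this order did not overlap between the WT replicates. The order nevertheless depended on the length used in its middle part, since with the coding length CHD8 ranked 3, CHD1 ranked 4, CHD2 ranked 5 and CHD6 ranked 6. The ends of the order, with CHD4 and CHD7 first and CHD3, CHD9 and CHD5 last, were the same with summed exons, coding length and the longest transcript. No exact stretch of 50 bases was shared by the annotated exons of any of the 36 pairs of members, so reads of 1 member had no such stretch of another to match.

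As a share of the family's summed TPM in WT cells, CHD4 made up 31.0% ± 0.578, CHD7 21.4% ± 0.574 and CHD5 0.274% ± 0.0325 (SD, n = 2). Subfamily III made up 45.2% ± 0.744, subfamily II 35.4% ± 0.61 and subfamily I 19.3% ± 1.35. In CHD7 knockout cells the share of CHD7 was 7.09% ± 0.254 and that of subfamily III 36.4% ± 0.318, while those of CHD3 and CHD9 were 7.43% ± 0.707 and 5.84% ± 0.35, against 4.2% and 3.09% in WT cells. CHD7 thus moved from rank 2 to rank 7, among neighbours whose replicate values overlapped, with CHD7 at 40.6 and 42.6 TPM, CHD3 at 40.7 and 46.4 TPM and CHD2 at 44.2 and 50.8 TPM. With the coding length its rank was 6. In HERVH knockout cells the ranks per summed exon length were those of WT, and CHD7 made up 21.8% ± 0.248 of the family. With the coding length CHD1 and CHD8 changed places there. In HERVH knockdown cells the ranks per summed exon length were also those of WT, while with the coding length CHD3 and CHD9 changed places. The family's summed TPM there was 525 ± 218 with summed exons and 515 ± 94.3 with the coding length, and shares had wide errors, such as 33.4% ± 4.33 for CHD4 and 13.0% ± 3.35 for CHD1 with summed exons.

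**Figure D1:**
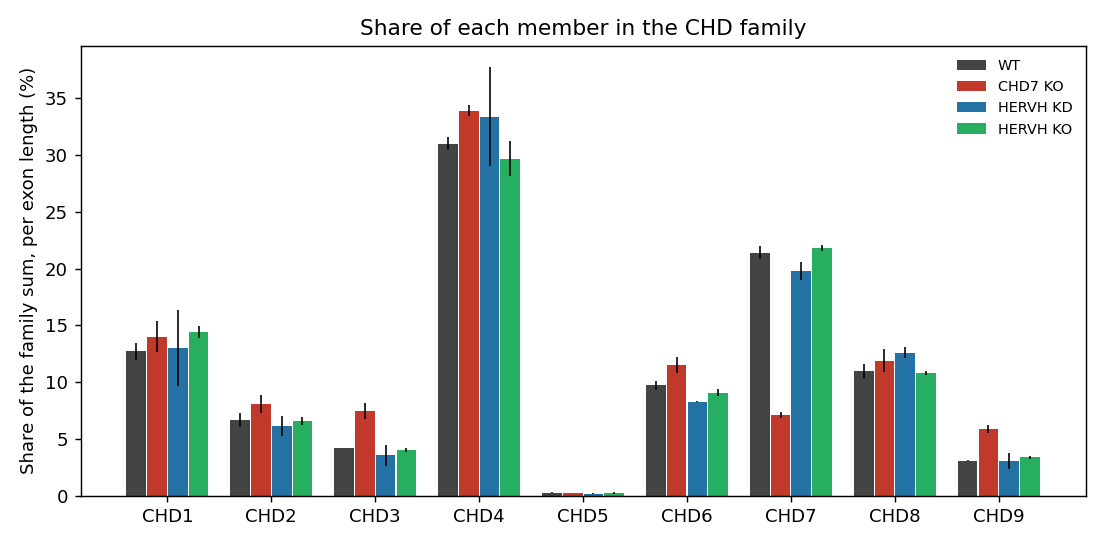
Share of each member in the family's summed TPM (percent, per summed exon length) in the 4 groups. Bars are means and error bars the SD of 2 replicates; the share of CHD7 was 21.4% in WT and 7.09% in CHD7 knockout cells, and CHD4 held the highest share in every group.

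The first question was whether the targeted gene itself differed in CHD7 knockout cells, which checks the labels, and whether its paralogs differed with it. CHD7 (ENSG00000171316, GRCh37 chromosome 8, 61591299 to 61780587, plus strand) was at 651 and 650 CPM in the WT libraries and at 197 and 197 CPM in the CHD7 knockout libraries. Both knockout libraries were far below every other library, where CHD7 was between 514 and 711 CPM. The log2 fold change was -1.72 (SE 0.14, 95% interval -2.03 to -1.41, FDR = 2.25e-05, edgeR quasi-likelihood test), a linear ratio of 0.303 to WT. Counts were summed over all exons, so the edit itself cannot be seen in them. The 20 expressed genes nearest to CHD7, 10 on each side with a mean log2 CPM of at least 2, had a median of -0.08 on the same scale, and 0 of them passed an FDR of 0.05 (edgeR quasi-likelihood test), with 1 at an unadjusted p below 0.05. Against the HERVH knockout libraries in place of WT, the log2 fold change of CHD7 was -1.83.

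In CHD7 knockout cells, 2 of the 9 members passed an FDR of 0.05, with CHD7 lower and CHD3 higher, where 1.81% of all genes tested passed, 1.19% of them higher and 0.613% lower. DESeq2's Wald test and edgeR's exact test each called 3 members, the same 2 and CHD9, where they called 3.59% and 3.47% of all genes. The same 3 members had an unadjusted p below 0.05 in the quasi-likelihood test, as did 10.9% of all genes. At the study's threshold for differentially expressed genes, FDR below 0.01 together with a 2-fold or larger change, CHD7 alone was called among the members and 0.571% of all genes. The median log2 fold change of the 9 members was 0.02 and that of all genes -0.01.

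CHD3 (ENSG00000170004, GRCh37 chromosome 17, 7788114 to 7816078, plus strand), a NuRD ATPase, was at 76.0 and 73.0 CPM in the WT libraries and at 115 and 126 CPM in the CHD7 knockout libraries. Both knockout values were above all 6 others, which were between 51.6 and 78.7 CPM. CHD3 rose by a log2 fold change of 0.69 (SE 0.16, 95% interval 0.34 to 1.04, FDR = 0.046), or 1.62-fold. The call was lost when any of the 4 libraries was left out, with log2 fold changes of 0.65 to 0.76 and FDRs of 0.229 to 0.372 (edgeR quasi-likelihood test). Against the HERVH knockout libraries CHD3 was higher by 0.66 (FDR = 0.0451). The genes around CHD3 did not share the change as a group. The 20 nearest expressed genes, within 0.792 Mb, had a median of -0.13 and 3 of them were above 0. The neighbours ranged from -2.16 to 0.70, the upper end being level with CHD3. CHD3 lay 0.82 above their median. Of the 20 neighbours 1 passed the FDR of 0.05, TMEM88, which was named after its values were seen, starts 29.7 kb before CHD3 and fell from 9.93 and 13.9 CPM to 2.77 and 2.53 CPM (log2 fold change -2.16, FDR = 0.00151). NAA38, which overlaps the first bases of CHD3 on the opposite strand, had a log2 fold change of -0.45 (FDR = 0.626), so that its difference was in the other direction. Whether the counting used strand was not stated, and reads in the overlap cannot be assigned with certainty.

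CHD9 (ENSG00000177200, GRCh37 chromosome 16, 53088903 to 53363062, plus strand), a member of the same subfamily as CHD7, was at 84.6 and 79.8 CPM in the WT libraries and at 140 and 145 CPM in the CHD7 knockout libraries. Both knockout values were above all 6 others, which ran from 60.01 to 97.8 CPM. The log2 fold change of 0.79 (SE 0.19, 95% interval 0.38 to 1.21), or 1.73-fold, did not pass the test (FDR = 0.0567, edgeR quasi-likelihood test). It passed in 7 of 15 alternatives, among them DESeq2's Wald test (FDR = 0.012), edgeR's exact test (FDR = 0.0109) and a fit blocked on the replicate number (FDR = 0.0349). The alternatives in which CHD9 passed called 2.01% to 5.79% of all genes, where the main fit called 1.81%. Against the HERVH knockout libraries the difference was 0.59 (FDR = 0.16).

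CHD9 was not alone in its part of chromosome 16. The 20 expressed genes nearest to it, from 49521435 to 56513016 (6.99 Mb), were shifted by a median of 0.54 (log2) in CHD7 knockout cells, by 0.55 in replicate 1 and 0.46 in replicate 2, and 8 of them passed an FDR of 0.05 where 1.81% of all genes did. The other 552 expressed genes of the chromosome had a median of -0.10. The neighbours ranged from -1.22 to 1.43, and 14 of the 20 were above 0. CHD9 lay 0.25 above the neighbours' median, a difference that was not tested. Among the 4 nearest tested genes on each side, RBL2, a retinoblastoma-like protein, went from 22.3 and 18.9 CPM to 42.2 and 47.7 CPM (log2 fold change 1.12, FDR = 0.0178). AKTIP rose by 1.09 (FDR = 0.0321) and RPGRIP1L, a protein of the ciliary transition zone, by 1.01 (FDR = 0.0368), all 3 on the side after CHD9. On the side before it, TOX3 had a log2 fold change of 0.70 (FDR = 0.145) and the pseudogene ENSG00000234337 one of 0.84 (FDR = 0.515). Farther out on that side, HNRNPA1L3 was at 0.03 (SE 0.26), and ENSG00000261238, with 3 to 13 counts a library, was at -0.33 (SE 0.91), too imprecise to place. The pseudogene ENSG00000261056, which lies inside CHD9 on the same strand and could not be told apart from it with certainty, was at 0.81 (FDR = 0.526). In HERVH knockdown and HERVH knockout cells, which were compared with the same WT libraries, the same 20 genes had medians of -0.08 and 0.00.

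**Figure D2:**
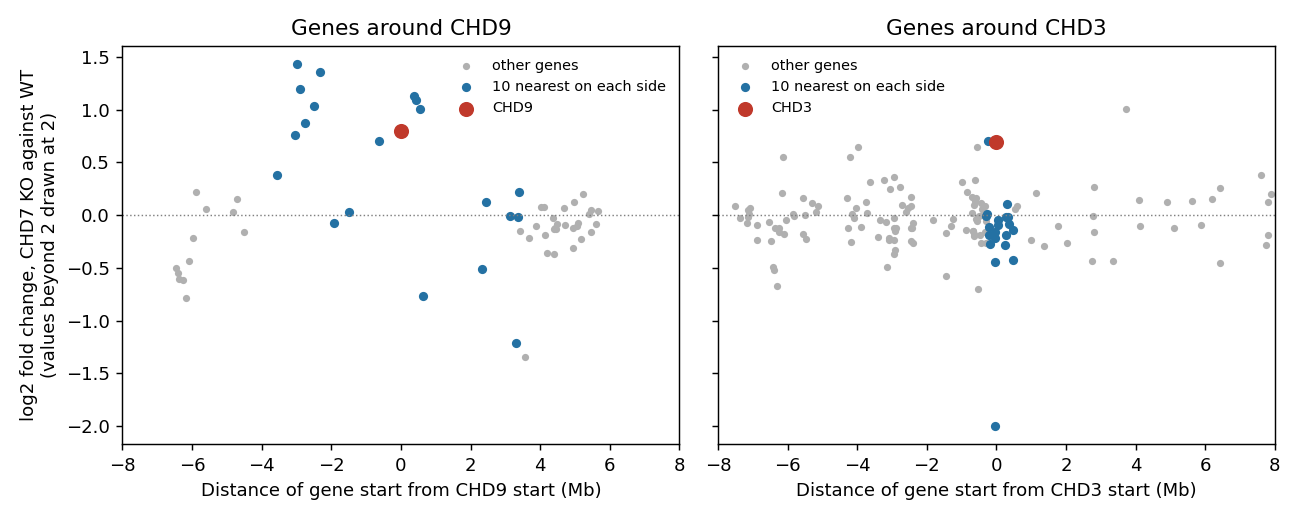
Log2 fold change in CHD7 knockout against WT cells (y axis) for expressed genes within 8 Mb of the start of CHD9 (left) and CHD3 (right), by distance in Mb (x axis). The 10 nearest genes on each side, in blue, had a median of 0.54 around CHD9 (red) and -0.13 around CHD3 (red); TMEM88, at -2.16 beside CHD3, is drawn at -2.

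For the other 7 members the median of the 20 nearest genes was between -0.15 and 0.11 in CHD7 knockout cells, and 0 to 2 of the 20 passed. These members were CHD1, CHD2, CHD4, CHD5, CHD6, CHD7 and CHD8.

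The promoter windows of CHD3 and CHD9 are shown, as members higher in both CHD7 knockout libraries with an unadjusted p below 0.05 (edgeR quasi-likelihood test). RefSeq, on GRCh38.p14, gave windows for 6 of the 9 members (CHD1, CHD2, CHD3, CHD4, CHD8 and CHD9), and the 250 bases before the start were read, 5′ to 3′ on the gene's strand, with every CG in capitals. CHD3 had 1 window (chr17:7888539-7888788, plus strand) with 9 CG, and 54.1% of all 35116 promoter windows held at least as many. For CHD9 the first of 4 windows (chr16:53054741-53054990, plus strand) held 22 CG, a number reached by 28.0% of windows, and the second held 33, reached by 8.15%. The third and the fourth windows of CHD9 held 1 and 2 CG. The motif searched was CG, which reads the same on both strands.
CHD3: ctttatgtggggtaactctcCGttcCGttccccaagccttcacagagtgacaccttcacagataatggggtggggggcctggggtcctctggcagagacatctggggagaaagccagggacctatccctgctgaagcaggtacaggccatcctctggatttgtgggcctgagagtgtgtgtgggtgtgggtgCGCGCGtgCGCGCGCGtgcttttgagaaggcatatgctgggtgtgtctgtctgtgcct
CHD9: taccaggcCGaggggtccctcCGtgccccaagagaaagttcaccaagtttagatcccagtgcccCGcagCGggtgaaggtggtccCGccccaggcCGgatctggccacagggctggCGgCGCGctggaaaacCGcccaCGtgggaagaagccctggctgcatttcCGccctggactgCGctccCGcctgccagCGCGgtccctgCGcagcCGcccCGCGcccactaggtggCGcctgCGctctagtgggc
The CG of CHD3 stood mostly in 1 run of alternating bases near the end of the window, while those of CHD9 were spread over its whole length. The windows are on GRCh38.p14 and the gene positions above on GRCh37, and the windows were not placed relative to the annotated gene starts. A window can therefore belong to a start inside its gene, and the CG numbers of CHD3 and CHD9 need not describe like starts. Gene counts do not say from which start the transcripts came.

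The remaining members differed little from WT in CHD7 knockout cells. CHD4 was at 637 and 629 CPM in the WT libraries and at 658 and 612 CPM in the knockout libraries, with a log2 fold change of 0.00 and a 95% interval of -0.28 to 0.29. CHD8, of the same subfamily as CHD7, was at 364 and 377 CPM in WT and at 400 and 337 CPM in the knockout libraries (log2 fold change -0.01, 95% interval -0.31 to 0.29). For both genes the WT values lay between the knockout values. CHD6 was at 231 and 209 CPM in WT and at 234 and 242 CPM in the knockout libraries. Both knockout values of CHD6 were above those of every other library, as for CHD3 and CHD9. The log2 fold change of 0.11 (95% interval -0.19 to 0.42) nevertheless did not pass (FDR = 0.885, edgeR quasi-likelihood test). CHD1 and CHD2 overlapped between the groups, with log2 fold changes of 0.02 and 0.15 and intervals reaching from -0.42 to 0.52. CHD5 was at 4.16 and 4.72 CPM in WT and at 3.28 and 3.55 CPM in the knockout libraries, without overlap (log2 fold change -0.38, 95% interval -1.09 to 0.34, FDR = 0.816). The interval of CHD5 was the widest of the 9, at 41 to 101 counts a library. Summed over the 8 members other than CHD7, the level was 1879 and 1790 CPM in WT and 2038 and 1936 CPM in CHD7 knockout cells, and with CHD7 included it was 2530 and 2440 CPM against 2236 and 2133 CPM.

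**Figure D3:**
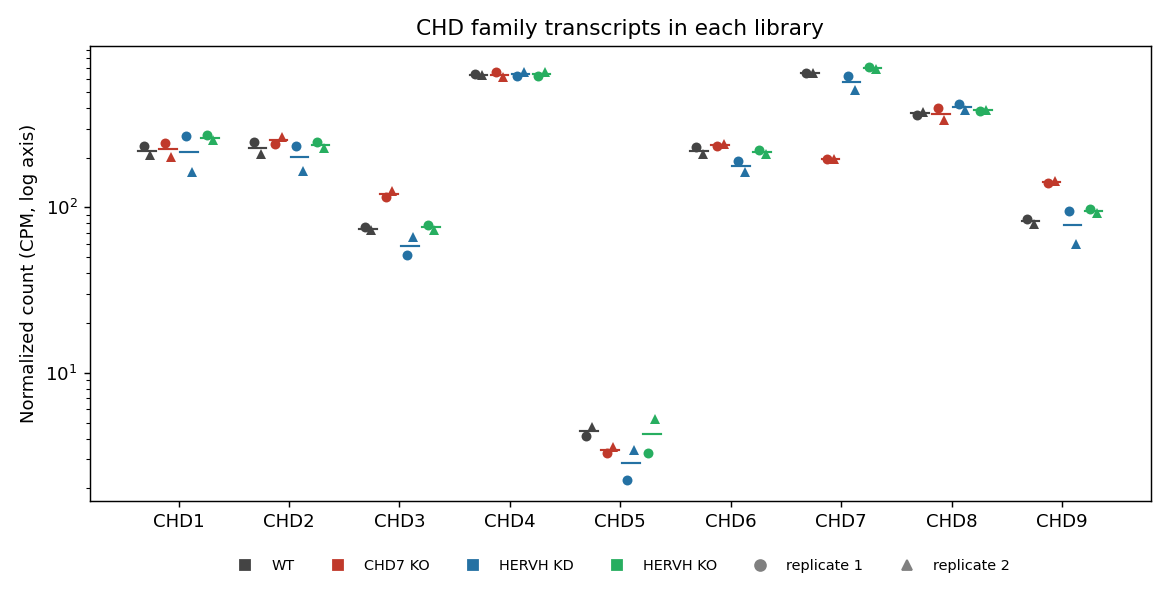
Normalized counts (CPM, log axis) of the 9 members in each library, with circles for replicate 1, triangles for replicate 2 and horizontal lines for group means. The CHD7 knockout libraries stand apart for CHD7 (197 CPM in each), CHD3 (115 and 126 CPM) and CHD9 (140 and 145 CPM); for CHD1 the HERVH knockdown replicates are the farthest apart, at 270 and 163 CPM.

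The next comparison asked whether HERVH knockdown, aimed at an RNA that the study examined as a partner of CHD7, went with a difference in CHD7 or its relatives. The sequences of the 3 LNA-GapmeRs are shown, 5′ to 3′, so that their matches to the members can be read.
SHHERVH_3: ggaagatttgggacga
SHHERVH_4: attgggacctagctcg
SHHERVH_12: atgtggagtgggtagc
No member's genomic span, introns included, held a full complement of any of the 3 oligonucleotides on its sense strand. Of the 27 pairs of oligonucleotide and member, 1 came within 2 mismatches, 7 had 3 at best, 10 had 4 and 9 had 5. The closest was SHHERVH_3 in an intron of CHD6 (GRCh37, chr20:40098599-40098614, minus strand). CHD6 was searched at 216286 positions, more than any member but CHD9, at 274145. The number of such sites expected in spans of this length was not computed. An effect of the site on CHD6 was not tested. The CHD6 site is shown on the sense strand with the 2 mismatched bases in capitals, below the full complement of SHHERVH_3.
complement of SHHERVH_3: tcgtcccaaatcttcc
CHD6 site: tcTtcccaaatcCtcc

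In HERVH knockdown cells 0 of the 9 members passed an FDR of 0.05 with edgeR's quasi-likelihood test, where 2.15% of all genes did, 0.618% higher and 1.53% lower, and 0.217% were differentially expressed at the study's threshold. DESeq2's Wald test and edgeR's exact test also called 0 members, against 7.57% and 5.28% of all genes. An unadjusted p below 0.05 was found for 1 of the 9 members, CHD6, and for 19% of all genes. CHD7 was at 626 and 514 CPM against 651 and 650 CPM in WT. Both knockdown values were below WT, the second by more than the first, and the log2 fold change was -0.19 (SE 0.14, 95% interval -0.49 to 0.11, FDR = 0.487). CHD6 (ENSG00000124177, GRCh37 chromosome 20, 40030723 to 40247023, minus strand) was at 190 and 164 CPM against 231 and 209 CPM in WT. The log2 fold change of CHD6 was -0.31 (SE 0.14, 95% interval -0.62 to -0.01, FDR = 0.255, edgeR quasi-likelihood test). CHD3 was at 51.6 and 65.8 CPM, both below WT (log2 fold change -0.34, FDR = 0.269), and CHD5 was at 2.25 and 3.42 CPM, also both below WT (log2 fold change -0.66, 95% interval -1.40 to 0.08, FDR = 0.318). CHD8 was at 420 and 386 CPM, both above WT, with a log2 fold change of 0.12 (FDR = 0.681). CHD4 was at 627 and 657 CPM, on both sides of WT, with a log2 fold change of 0.02 (95% interval -0.26 to 0.30). The median of the 9 members was -0.19 and that of all genes 0.04.

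**Figure D4:**
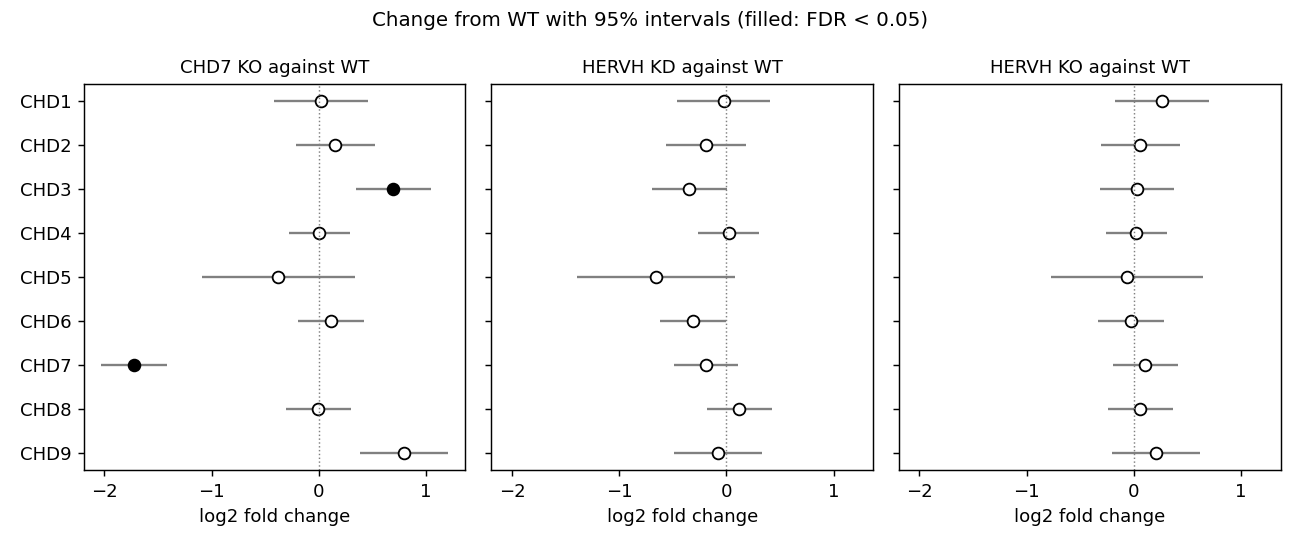
Log2 fold change of each member against WT in CHD7 knockout, HERVH knockdown and HERVH knockout cells (x axis), with 95% intervals as bars and filled points for an FDR below 0.05 by edgeR's quasi-likelihood test. Filled points are CHD7 at -1.72 and CHD3 at 0.69, both in CHD7 knockout cells; all points of the other comparisons are open. The 3 comparisons share the WT libraries.

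The 2 HERVH knockdown replicates differed from each other more than those of other groups. Across genes, replicates were apart by a median SD of 0.229 (log2 CPM) in HERVH knockdown cells, against 0.104 for WT, 0.0916 for CHD7 knockout and 0.0615 for HERVH knockout cells. CHD1 was at 270 and 163 CPM, CHD9 at 95.7 and 60.01 CPM and CHD2 at 234 and 167 CPM in the knockdown replicates, and for CHD1 and CHD9 the WT values lay between them. The differences of replicate 2 from replicate 1 largely followed the GC content of the exons. CHD1, with 36.4% GC, had a log2 difference of -0.73, and CHD9, with 38.9% GC, one of -0.67. CHD8, with 44.5% GC, was at -0.12, above CHD7 (45.2% GC, -0.28) and CHD6 (45.6% GC, -0.21), and so out of that order. CHD4, with 50.4% GC, had a difference of 0.07, and CHD3, with 54.1% GC, one of 0.35. CHD5, with 60.6% GC, had the highest, at 0.59. Spearman's rho between GC content and this difference was 0.95 over the 9 members and 0.718 over 12480 genes, which come from the same 2 libraries and are not independent replicates. In 5 bins of genes by GC content, each with about as many genes, the median difference went from -0.36 in the lowest to 0.66 in the highest. The part of GC content in the values of the members was not tested beyond a GC correction. With it, 0 members were called in the knockdown, where 8.43% of all genes were. The lowest FDR among the members was then that of CHD3, at a log2 fold change of -0.42 (FDR = 0.0553, edgeR quasi-likelihood test).

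Which members were called therefore turned on single libraries. Without HERVH knockdown replicate 1, 15.8% of all genes passed and 8.18% passed as lower. Of the members 5 passed there, all lower than WT: CHD1 at -0.49 (FDR = 0.0233), CHD2 at -0.51 (FDR = 0.0155), CHD6 at -0.48 (FDR = 0.0165), CHD7 at -0.39 (FDR = 0.0286) and CHD9 at -0.51 (FDR = 0.019). Without HERVH knockdown replicate 2, 7.85% of all genes passed and 5.75% passed as lower, and 1 member did, CHD3, at -0.54 (FDR = 0.0241). In that fit CHD1, CHD2 and CHD9 were at 0.28, 0.02 and 0.21. The single library left in these fits was assumed to vary like the other groups. Of the members, CHD3, CHD5, CHD6 and CHD7 kept a log2 fold change below 0 without either library.

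**Figure D5:**
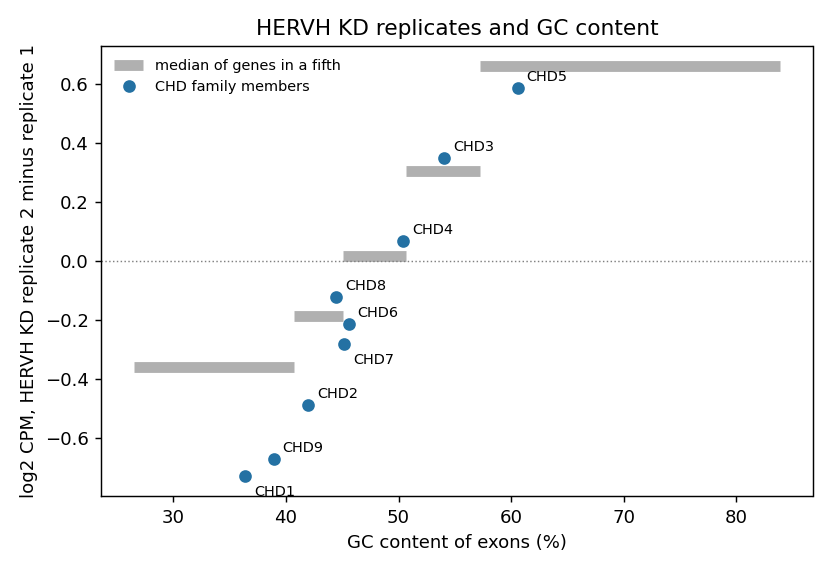
Difference in log2 CPM between HERVH knockdown replicates 2 and 1 (y axis) against the GC content of the exons in percent (x axis) for the 9 members (points) and as medians of 5 bins of genes by GC content (grey bars, each as wide as its bin). The members run from CHD1 at -0.73 to CHD5 at 0.59, and the bins from -0.36 to 0.66.

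The last comparison asked whether loss of 1 HERVH element went with a difference in the family. In HERVH knockout cells 0 of the 9 members passed, where 0.0724% of all genes did, 0% higher and 0.0724% lower, and 0.0298% were differentially expressed at the study's threshold. DESeq2's Wald test and edgeR's exact test also called 0 members, against 0.0852% and 0.124% of all genes, and 0 members had an unadjusted p below 0.05 by edgeR's quasi-likelihood test, against 2.63% of all genes. CHD7 was at 711 and 691 CPM against 651 and 650 CPM in WT. Both HERVH knockout values of CHD7 were above WT, by a log2 fold change of 0.11 (95% interval -0.19 to 0.41). CHD1, which acts in transcription elongation, was at 273 and 256 CPM against 235 and 207 CPM in WT (log2 fold change 0.26, 95% interval -0.18 to 0.70), and CHD9 was at 97.8 and 91.9 CPM (log2 fold change 0.21). Both were above WT in each library, as was CHD8, at 385 and 388 CPM (log2 fold change 0.06). Such separation was not counted over all genes and is not read as a difference. CHD2, CHD3, CHD4, CHD5 and CHD6 overlapped with WT, with log2 fold changes between -0.06 and 0.06. The median of the 9 members was 0.06 and that of all genes -0.02. Every member had an FDR of 1 (edgeR quasi-likelihood test). Differences inside these intervals were not detectable with 2 libraries a group.

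The genes beside the members were examined for RNAs that could share their reads. In all, 38 annotated genes overlapped a member or lay within 20 kb of one, 18 of them overlapping, and of the 25 that were tested 0 passed an FDR of 0.05 in any of the 3 comparisons (edgeR quasi-likelihood test). An unadjusted p below 0.05 was reached by 0 of them in CHD7 knockout, 5 in HERVH knockdown and 2 in HERVH knockout cells, beside 10.9%, 19% and 2.63% of all genes. CHASERR, a long noncoding RNA that starts before CHD2 on the same strand and is known to restrain CHD2, was counted 648 and 486 times in the WT libraries, 598 and 510 times in CHD7 knockout, 487 and 342 times in HERVH knockdown and 629 and 522 times in HERVH knockout libraries. Its log2 fold changes were 0.06, -0.03 and 0.06, beside 0.15, -0.19 and 0.06 for CHD2. By the annotation used here CHASERR overlaps CHD2, so its values are uncertain. ENSG00000254432, a noncoding gene inside CHD7 on the opposite strand, was counted 39 times in each WT library and 9 and 38 times in the CHD7 knockout libraries (log2 fold change -0.58, FDR = 0.839).

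In CHD7 knockout, HERVH knockdown and HERVH knockout cells, 1.81%, 2.15% and 0.0724% of all genes passed an FDR of 0.05 by edgeR's quasi-likelihood test. Of 12 NuRD subunits other than the ATPases, 0 passed in any comparison. Their medians were -0.10 in CHD7 knockout, -0.16 in HERVH knockdown and -0.06 in HERVH knockout cells, and 2, 5 and 0 of them had an unadjusted p below 0.05, where 10.9%, 19% and 2.63% of all genes had one. The subunits went both ways around these medians. In CHD7 knockout cells they ran from -0.50 for MTA2 to 0.55 for GATAD2B, and in HERVH knockdown cells from -0.70 for MBD2 to 0.60 for MBD3, the methyl-CpG-binding domain proteins of alternative NuRD forms. Of 16 other partners, 1 was called, RBBP5, a core subunit of H3K4 methyltransferases that CHD8 associates with. RBBP5 (GRCh37 chromosome 1, 205055270 to 205091143) rose from 81.4 and 80.8 CPM to 140 and 134 CPM in the CHD7 knockout libraries (log2 fold change 0.76, SE 0.18, FDR = 0.0444). The 20 expressed genes nearest to RBBP5 had a median of 0.59 there and 5 of them passed, so RBBP5, like CHD9, stood among neighbours that were higher. SOX2, PBRM1 and ARID2, partners of CHD7 in the same list, did not pass in any comparison.

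Other remodeler families served as a setting for the CHD genes. Of 11 ISWI genes, 0 passed in any comparison and 0 had an unadjusted p below 0.05 (edgeR quasi-likelihood test), although all 11 were above 0 in CHD7 knockout cells, between 0.04 and 0.28, with a median of 0.24. The ISWI medians were 0.13 in HERVH knockdown and 0.23 in HERVH knockout cells, measured against the same WT libraries. Of 24 tested SWI/SNF genes, 1 passed, DPF1, which went from 8.27 and 14.4 CPM in WT to 27.8 and 29.4 CPM in HERVH knockdown cells (log2 fold change 1.34, FDR = 0.0309). Of 20 INO80, SRCAP, EP400 and other SNF2 ATPase genes, 1 passed, HLTF, a DNA translocase of replication fork repair, which fell from 183 and 120 CPM to 66.7 and 58.4 CPM in HERVH knockdown cells (log2 fold change -1.27, FDR = 0.00834). In the knockdown 2.15% of all genes passed, so 1 call in a list of 24 or 20 genes is not read as a result about the list. In CHD7 knockout cells 0 genes of the ISWI, SWI/SNF and other SNF2 lists passed by edgeR's quasi-likelihood test, and 0, 2 and 1 of them had an unadjusted p below 0.05. Of all genes 1.81% passed there and 10.9% had an unadjusted p below 0.05.

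For the called members, the genes whose log2 CPM followed theirs most closely were sought over the 8 libraries among 6287 genes with a mean log2 CPM of at least 5, as a description in which the 4 groups set most of the spread. For CHD7 these were MAP1LC3B (Pearson's r 0.977), DISP1 (r 0.970) and AMOTL1 (r 0.967). The log2 fold changes in CHD7 knockout cells were -0.85 for MAP1LC3B, -1.27 for DISP1 and -0.64 for AMOTL1. The 20 neighbours of MAP1LC3B had a median of -0.39 with 9 called, those of DISP1 0.39 and those of AMOTL1 0.04. For CHD3 the closest were MAP3K21 (r 0.995), SPIDR (r 0.989) and PLEKHA6 (r 0.984). Their log2 fold changes in CHD7 knockout cells were 0.45 (FDR = 0.199), 0.33 (FDR = 0.461) and 1.67 (FDR = 0.000459, edgeR quasi-likelihood test). Over the genes searched, the 99th percentile of r was 0.911 for CHD3 and 0.865 for CHD7. MAP3K21 and PLEKHA6 stood among neighbours with medians of 0.32 and 0.76, while the median around SPIDR was -0.01.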

How the data were processed

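RNA was sequenced from 8 rRNA-depleted, strand-specific libraries. The authors aligned them with STAR to hg19, using Ensembl GRCh37.75, and used HTSeq-count for gene counts (versions and strand setting not given in the sources used here); the deposited values are read counts without normalization. Rows for reads outside genes (34.9% to 42.5% a library) and ambiguous reads (3.81% to 4.75%) were left out. Groups came from the labels. From the counts, TMM-scaled CPM, TPM and edgeR quasi-likelihood tests (edgeR 4.0.16, R 4.3.3, DESeq2 1.42.0) were computed here in a single fit of the 8 libraries by group (4 residual degrees of freedom), over 23474 genes kept by filterByExpr. Calls required an FDR below 0.05, adjusted by Benjamini-Hochberg over every gene tested. Positions came from a GRCh37 annotation, which placed 55538 genes (96.1%). The members and gene lists were chosen with earlier results of these data known. Genes were named by rule: all members, the 4 tested genes nearest to CHD9 on each side, up to 3 called genes a list, the 3 closest in pattern, and genes overlapping or flanking a member; others are said to be named after their values were seen. GATAD2B, MTA2, MBD2 and MBD3 are the ends of their list and were also named after their values were seen. Alternatives were other scalings, filters and tests, fits of 4 libraries, a replicate block, a GC correction, other thresholds, other control libraries and each library left out; a crossed block was added after seeing the data. On simulated data, 197 of 200 changed genes were recovered and 9 unchanged genes called of 22679 in CHD7 knockout against WT. The simulated counts had the same spread beyond counting error in every gene and group. The changed genes were well counted and changed 2-fold or more. This recovery does not hold for smaller changes, such as those of CHD3 and CHD9, or for groups with more spread. Groups of 2 allow no outlier test.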

Additional observations from a re-analysis of the deposited data

How the results depend on the processing

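CHD7 kept its call in CHD7 knockout cells in all 15 alternatives (log2 fold change -1.73 to -1.69 with a library left out), and CHD3 kept it in 11 of 15, losing it with each of the 4 libraries left out (0.65 to 0.76). The log2 fold change of CHD9 passed with no expression filter (0.80), the exact test of edgeR (0.79), DESeq2's Wald test (0.80), the 4 libraries compared alone (0.79), the replicate block (0.80), the GC correction (0.74) and both together (0.74), ranged from 0.75 to 0.86 without a pass when a library was left out, and was 0.25 relative to its 20 neighbours. The 7 fits in which CHD9 passed called 2.01% to 5.79% of all genes, where the main fit called 1.81%. The replicate numbers are not said to mark a shared batch. With the replicate block, members called were 3 in CHD7 knockout, 0 in HERVH knockdown and 0 in HERVH knockout cells, and genes called 471, 639 and 16, against 424, 504 and 17 without it. Deviations of same-numbered libraries correlated with WT at -0.34 for CHD7 knockout, 0.41 for HERVH knockdown and 0.63 for HERVH knockout; the crossed block gave 3 members and 714 genes in CHD7 knockout cells. An FDR below 0.01, with or without a 2-fold change, left 1 member in CHD7 knockout cells, CHD7, and leaving out any library also left 1, with 0.326% to 0.494% of all genes called. In HERVH knockdown cells leaving out a WT library gave 0 members and 0.0159% to 0.79% of genes, and leaving out knockdown replicate 1 or 2 gave 5 members and 15.8% or 1 member and 7.85% of genes.

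Members that were not called changed sign as follows, and the cause was not tested. In CHD7 knockout cells CHD1 was at -0.03 with the GC correction, -0.04 with the block and GC correction, -0.24 against HERVH knockout libraries and -0.12 to 0.17 with a library left out. CHD4 was at -0.01, -0.01, -0.02 and -0.04 to 0.08 under the same settings. CHD8 was at 0.0036 with RLE scaling and with DESeq2, 0.0031 with upper-quartile scaling, 0.00083 without a filter, 0.01 with a CPM filter and -0.13 to 0.13 with a library left out. In HERVH knockdown cells CHD1 was at 0.11 with the GC correction, 0.10 with the block as well and -0.49 to 0.28 with a library left out. CHD9 was at 0.03, 0.03 and -0.51 to 0.21, and CHD2 at -0.51 to 0.02 with a library left out. CHD4 was at -0.01 with upper-quartile scaling and with either GC correction, -0.0041 in a fit of 4 libraries and -0.02 to 0.03 with a library left out. In HERVH knockout cells CHD5 was at 0.09 with the GC correction, 0.07 with the block as well and -0.44 to 0.27 with a library left out, where CHD2 was at -0.05 to 0.21, CHD3 at -0.01 to 0.09, CHD4 at -0.01 to 0.08 and CHD6 at -0.09 to 0.07. Depth limited CHD5 most, at 41 to 101 counts a library.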
